A study of Homo sapiens with 18 samples.

Results

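The 3' ends of protein-coding gene records were examined in the peak lists of linker histones H1.2 and H1.5 from HL-60/S4 cells, a human leukemia line that grows in suspension. An end was kept when no transcription start site (TSS) of any gene lay within 5000 bp, which left 11492 of the 20098 protein-coding records on chromosomes 1 to 22 and X (57.2%). The cells were undifferentiated. In the xChIP groups (H1.2 and H1.5), cells were fixed with formaldehyde for 10 min and sonicated for 20 min before antibody was added. In the xxChIP groups (H1.2 and H1.5), cells fixed for 10 min were permeabilized, bound by antibody, fixed again for 2.5 min and only then sonicated for 40 min. Each of the 4 groups had 3 replicates, whose peaks the authors merged into 1 list, and 6 Input samples were not used here. The lists hold peak positions without heights or read numbers, so depth is unknown, there is no spread between replicates and no difference below carries a test. Wilson 95% intervals cover counting error over ends only.

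Linker histones bind nucleosomes where DNA enters and leaves the particle and help to compact chromatin. At the 3' end of a gene, the nascent transcript is cut shortly after a polyadenylation signal, most often the hexamer AATAAA or its variant ATTAAA, and RNA polymerase II goes on past this point before it terminates. Terminal exons of coding genes usually hold the 3' untranslated region, a stretch with fewer interspersed repeats than the DNA that follows it.

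The signal is visible in the sequence of many ends. The last 30 bases of the sense strand are shown for 6 ends that stand for the patterns described below, read 5' to 3' from GRCh37 (hg19), with the hexamer in capitals. All 6 hold a hexamer in these bases, whereas other ends named below, such as those of RCC1, ZNF717 and NBPF10, do not. GMEB1 (chr1:29045836-29045865, plus strand) lay under an xChIP H1.2 peak only, and NSUN5 (chr7:72716513-72716542, minus strand) and SNAI1 (chr20:48605394-48605423, plus strand) under an xChIP H1.5 peak only. NUSAP1 (chr15:41673219-41673248, plus strand) lay under both xChIP lists, PSG2 (chr19:43568361-43568390, minus strand) under both xxChIP lists and ZNF883 (chr9:115750409-115750438, minus strand) under all 4 lists.
GMEB1: gacAATAAAcatgaatattcaagattcaaa
NSUN5: caaaAATAAAtttttgttaaaaaacgttta
SNAI1: cAATAAAgcagttaatttatatattaaaaa
NUSAP1: ataAATAAAattttttctcattgtcataga
PSG2: tatggtAATAAAgctatttgcacaagttca
ZNF883: aaATTAAAtttttttaaaagatacaattca

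AATAAA was found on the sense strand in the last 50 bases of 6991 ends (60.8%), and on the antisense strand of the same bases in 7.38%. Stretches of the same length in the bins used for comparison held it in 5.00% on the plus strand and 5.02% on the minus strand. ATTAAA was found in 2058 ends (17.9%), against 3.35% and 3.38% of the stretches in bins. Of all ends, 8275 (72.0%) were also the end of the canonical transcript.

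Peaks were counted in the window of 1000 bp on each side of an end, from 1 shared bp, and compared with 2000-bp bins of the same GC content, in classes of 1 percentage point, that had no TSS within 5000 bp and touched no member window. The comparison needed GC, since windows at ends had a mean GC content of 43.6% and bins one of 40.2%. Across all 1150199 bins, xChIP peaks overlapped 34.2% (H1.2) and 25.9% (H1.5), and xxChIP peaks 31.7% (H1.2) and 28.3% (H1.5).

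Gene ends were overlapped by xxChIP peaks much less often than bins of the same GC, whereas xChIP H1.2 peaks were as frequent there as in such bins. xChIP H1.2 peaks overlapped 4585 ends (39.9%, interval 39.0% to 40.8%), against 39.4% of bins of the same GC, a ratio of 1.01. xChIP H1.5 peaks overlapped 2522 ends (21.9%, 21.2% to 22.7%), against 25.2%, a ratio of 0.870. xxChIP H1.2 peaks overlapped 1952 ends (17.0%, 16.3% to 17.7%), against 27.4%, a ratio of 0.620. The lowest value was that of xxChIP H1.5, with 1643 ends (14.3%, 13.7% to 14.9%), against 25.3%, a ratio of 0.564. Windows at ends held fewer repeated words than bins of the same GC, where a repeated word is a stretch of 14 bases with at least 1000 copies in the genome. Such words started at 9.25% of positions at ends and at 12.4% in the bins. When bins were also matched for this share, a choice made after seeing the data, the xChIP ratios became 1.15 (H1.2) and 1.01 (H1.5), so the deficit of xChIP H1.5 was not seen, while the xxChIP ratios stood at 0.631 (H1.2) and 0.580 (H1.5).

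Whole coverage of the window separated the lists in the same order. xChIP peaks covered all 2000 bp at 2185 ends for H1.2 (19.01%) and 596 for H1.5 (5.19%), against 19.6% and 7.62% of bins of the same GC. xxChIP peaks did so at 441 ends for H1.2 (3.84%) and 310 for H1.5 (2.70%), against 10.0% and 8.12%. The longest peak at an overlapped end had a median length of 10231 bp for xChIP H1.2 and 2877 bp for H1.5 of the same protocol, and of 2831 bp (H1.2) and 2436 bp (H1.5) in the xxChIP lists.

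The same genes were also measured at their start and at their middle. At the start, xChIP peaks overlapped 45.1% (H1.2) and 21.2% (H1.5) of windows, and xxChIP peaks 9.34% and 8.26%. At the middle the shares were 45.6% and 25.0% for xChIP and 22.9% and 19.3% for xxChIP. The end thus lay above the start by 7.65 percentage points for H1.2 and 6.04 for H1.5 in the xxChIP lists, with the same sign on 23 of 23 chromosomes, and the difference of end minus start in the xChIP lists was -5.24 percentage points (H1.2) and 0.766 (H1.5). Starts are richer in GC, and after division by bins of the same GC this order did not hold for 3 of the lists. The ratios at starts were 0.887 (H1.2) and 0.898 (H1.5) for xChIP, and 0.635 (H1.2) and 0.516 (H1.5) for xxChIP, the latter beside 0.620 and 0.564 at ends. The middle had higher ratios than the end in all 4 lists, at 1.13 and 0.981 for xChIP and 0.837 and 0.762 for xxChIP.

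**Figure D1:**
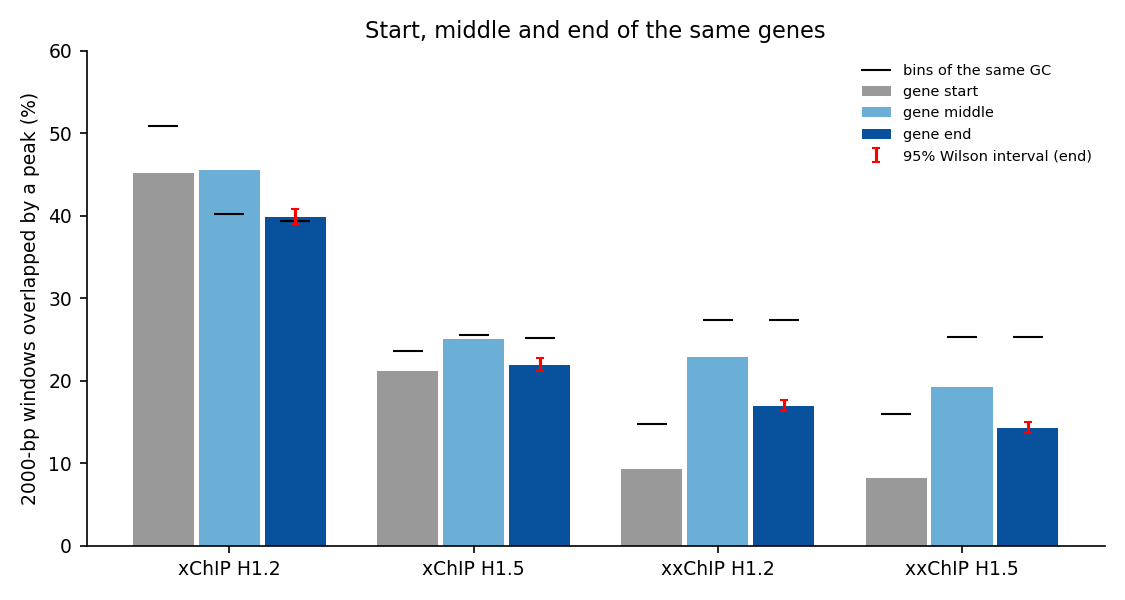
Share of 2000-bp windows overlapped by a peak (y axis, percent) at the start, middle and end of the same 11492 genes in each list (x axis), with black marks for bins of the same GC and red bars for the 95% Wilson interval at ends. The xxChIP bars at ends, at 17.0% and 14.3%, lie well under their marks at 27.4% and 25.3%, and those at starts lie under theirs too.

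Coverage rose downstream of the end. In the last 100 bp of the gene, xChIP peaks covered 25.6% of ends for H1.2 and 11.7% for H1.5, and xxChIP peaks 7.76% and 6.36%. At 900 to 1000 bp downstream the shares had reached 32.8% and 14.6% for xChIP and 12.4% and 10.2% for xxChIP. Between 4000 and 5000 bp downstream, xChIP stood at 39.9% and 18.8% and xxChIP at 15.1% and 13.2%. At that distance on the gene side the values were 31.0% and 13.3% for xChIP and 11.9% and 9.54% for xxChIP. The profile was thus not symmetric. The first 100 bp downstream were close to the last 100 bp of the gene, at 25.9% and 12.0% for xChIP and 7.99% and 6.67% for xxChIP, and the rise went on over the next kilobases. Coverage was lowest in the last 100 bp of the gene for xChIP H1.2 and already at 1600 to 1500 bp before the end for xChIP H1.5. Relative to positions of the same GC, the lowest coverage of any 100-bp step was 0.420 in xxChIP H1.2, at 1000 to 900 bp before the end, and 0.379 in xxChIP H1.5, at 800 to 700 bp before it.

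**Figure D2:**
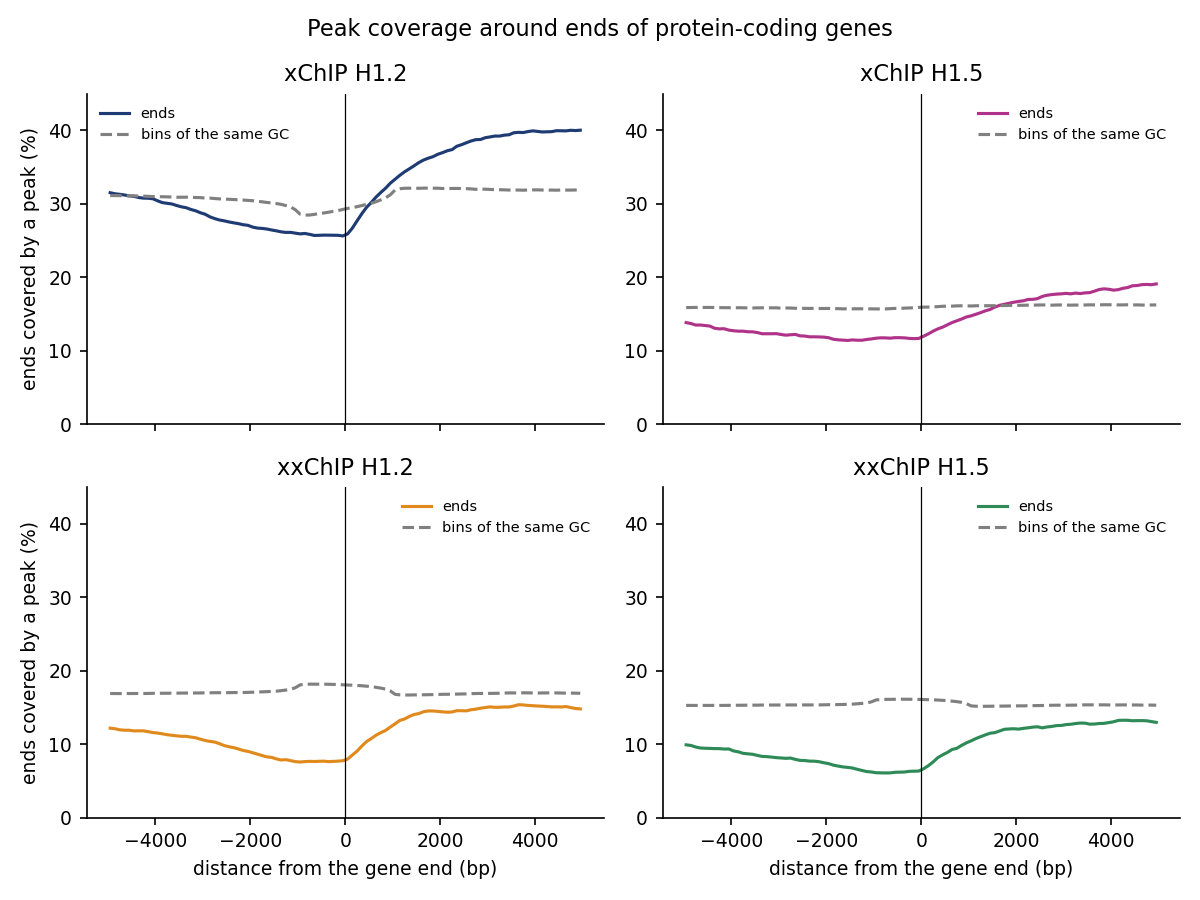
Share of ends covered by a peak (y axis, percent) in steps of 100 bp by distance from the gene end (x axis, bp, positive downstream), 1 panel per list, with the value of bins of the same GC as a dashed line. Coverage is low up to the end and rises after it in each list, and the xChIP lists cross the dashed line while the xxChIP lists stay under it.

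Peak edges changed in number at the same place. Read along the gene, edges at which a peak is entered numbered 221 in the last 500 bp before the end and 661 in the first 500 bp after it for xChIP H1.2, a ratio of 2.99. The counts were 235 and 390 in the xChIP H1.5 list (1.66). The xxChIP lists had 126 and 429 for H1.2 (3.40) and 136 and 344 for H1.5 (2.53). Edges at which a peak is left went the other way by less, with 230 and 176 (H1.2) and 240 and 212 (H1.5) for xChIP, and 117 and 105 (H1.2) and 103 and 95 (H1.5) for xxChIP. The fullest 100-bp step for entered edges held 144 at 200 to 300 bp downstream in xChIP H1.2, and 110 (H1.2) and 84 (H1.5) at 300 to 400 bp in the xxChIP lists. The H1.5 lists had no distinct maximum near the end, since 88 occurred both at 300 to 400 bp and at 4300 to 4400 bp with xChIP, and xxChIP had 82 at 2100 to 2200 bp. More peaks thus began just after the gene end than just before it.

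**Figure D3:**
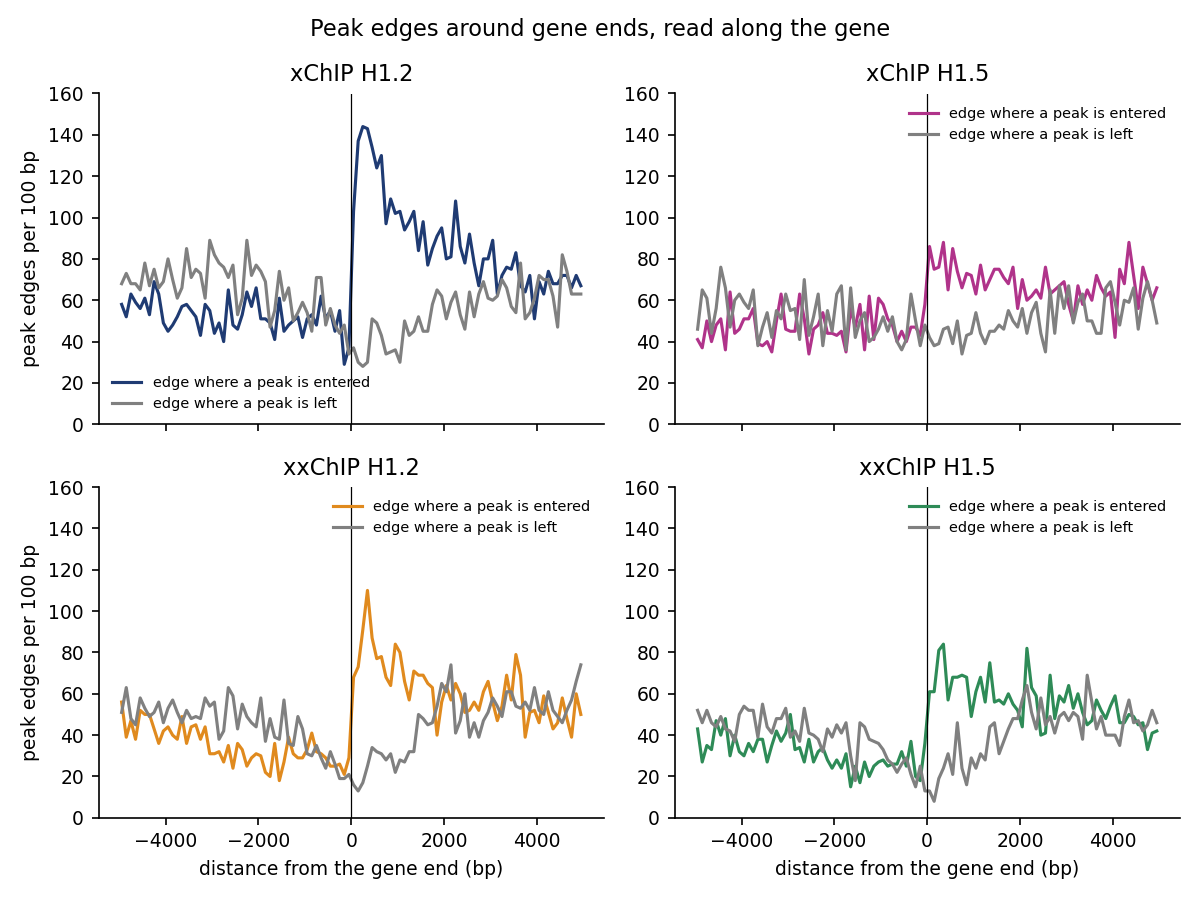
Number of peak edges per 100 bp (y axis) by distance from the gene end (x axis, bp, positive downstream), 1 panel per list, with edges entered in colour and edges left in grey. Entered edges jump just after the end, up to 144 per step in xChIP H1.2 and 110 in xxChIP H1.2.

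Over 1000 bp on each side, mean coverage downstream exceeded that on the gene side in every list. For xChIP it was 29.6% against 25.8% with H1.2, a difference of 3.84 percentage points, and 13.3% against 11.7% with H1.5, a difference of 1.62. For xxChIP it was 10.4% against 7.68% with H1.2 (2.68) and 8.58% against 6.22% with H1.5 (2.36). The difference was above 0 on 21 of 23 chromosomes for xChIP H1.5 and on 23 for each of the other lists. Most ends did not contribute, since coverage was equal on both sides at 9092 ends in the xChIP H1.2 list and at 10159 in the xxChIP H1.5 list.

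The sequence changed at the same place. Repeated words started at 4.54% of positions in the last 100 bp of the gene, 8.87% in the second 100 bp downstream and 14.5% at 900 to 1000 bp, and GC content dipped to 35.3% in the last 100 bp. The authors kept uniquely mappable reads, and the part of mappability in the rise was not tested. Bins of 1000 bp with the GC of each side differed by 3.58 (H1.2) and 0.350 (H1.5) percentage points in the xChIP lists. In the xxChIP lists they differed by -1.22 and -0.693. Beyond them the difference was 0.256 and 1.27 for xChIP and 3.90 and 3.06 for xxChIP. Bins with the GC and the repeated words of each side differed by 9.55 (H1.2) and 3.07 (H1.5) percentage points in the xChIP lists, more than the ends did, which left -5.71 and -1.44 beyond them. In the xxChIP lists the bins differed by 0.245 (H1.2) and 0.596 (H1.5), and 2.46 and 1.78 remained. Among the 4829 ends with fewer than 5% repeated words on both sides the differences were small, at 0.304 (H1.2) and 0.127 (H1.5) for xChIP and 0.968 (H1.2) and 0.404 (H1.5) for xxChIP. These 3 comparisons were chosen after seeing the data. The xxChIP differences stayed above 0 in each, and were smaller with repeated words matched than with GC alone.

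**Figure D4:**
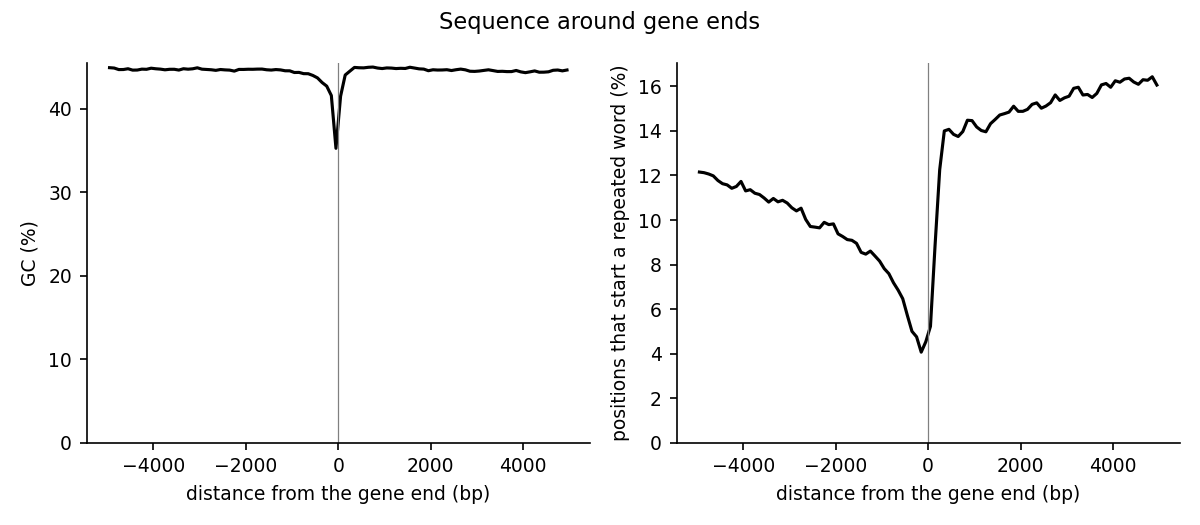
GC content (left, percent) and share of positions that start a repeated word (right, percent) by distance from the gene end (x axis, bp, positive downstream), as means over 11492 ends. GC dips to 35.3% in the last 100 bp, and repeated words go from 4.54% there to 14.5% at 900 to 1000 bp downstream.

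Terminal exons were compared with the intron before them at 5700 ends of canonical transcripts whose last intron had at least 1000 bp. With xChIP H1.2, coverage was 25.8% in the last 1000 bp of the intron, 22.9% in the exon and 27.9% in the 1000 bp downstream. With xChIP H1.5 the values were 12.1%, 11.5% and 13.4%. With xxChIP they were 9.72%, 7.42% and 11.0% (H1.2) and 8.31%, 6.42% and 9.55% (H1.5). In these values, which are not matched for GC or repeated words, the terminal exon was the least covered of the 3 stretches in each list over all ends. Whether this order would hold with matched bins was not tested. This did not hold for xChIP H1.5 at the 1204 exons of 4000 bp or more, where 10.4% of the exon and 9.70% of the intron were covered. For the 1690 exons of 2000 to 4000 bp, xChIP H1.2 peaks covered 18.7% of the exon and 25.9% of the stretch downstream, and xxChIP H1.2 peaks 6.99% and 12.4%. For H1.5 the values were 9.83% and 11.5% with xChIP and 7.03% and 10.7% with xxChIP.

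Each end was also placed by the set of lists that overlapped it. No list overlapped 4326 ends (37.6%, interval 36.8% to 38.5%), against 29.9% of bins of the same GC. At least 1 xChIP list and no xxChIP list overlapped 4292 ends (37.3%), against 30.8%, and at least 1 xxChIP list and no xChIP list overlapped 1502 (13.1%), against 20.8%. Both protocols met at 1372 ends (11.9%), against 18.5%, and each xxChIP list was less frequent at ends than in bins to begin with. Of the ends with xxChIP H1.2, 37.2% also had xChIP H1.2, against 33.7% in bins. Divided by the share of all ends or bins that the partner list overlapped, this was 0.932 at ends and 0.856 in bins. Not all pairs across protocols went this way. When the xxChIP partner of xChIP H1.2 was H1.5 instead, the values were 0.845 at ends and 0.896 in bins. Pairs that held the xChIP list of H1.5 had 1.13 at ends with either xxChIP list, beside 1.02 (H1.2) and 1.06 (H1.5) in bins. xChIP H1.2 alone was the most frequent pattern after none, with 2473 ends (21.5%, against 15.8%). All 4 lists met at 85 ends (0.740%, against 1.81%). Within each protocol, H1.2 and H1.5 shared a smaller part of each list at ends than in bins. The partner list was also more frequent in bins, except xChIP H1.2, which overlapped 39.9% of ends and 39.4% of bins. Of the 2522 ends with xChIP H1.5, 57.2% also had xChIP H1.2 (60.7% in bins), and the shared ends were 31.5% of those with xChIP H1.2 (38.9% in bins). Both xxChIP lists shared 721 ends, 36.9% of those with H1.2 (49.1% in bins) and 43.9% of those with H1.5 (53.1% in bins). Divided by the frequency of the partner list, the xxChIP lists gave 2.58 at ends and 1.94 in bins, and the xChIP lists 1.43 and 1.54. This quotient can reach higher values where the partner list is rarer, and xxChIP H1.5 overlapped 14.3% of ends and 25.3% of bins. Such quotients, here and above, thus do not rank the strength of association at ends against that in bins.

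When the ends were split by GC into 4 sets, xChIP H1.2 overlapped 20.6% and xxChIP H1.2 21.5% of the 2913 ends in the lowest set (mean 34.4%). In the highest set, 2864 ends with a mean of 55.1%, the shares were 55.0% and 6.98%. From the lowest to the highest GC, the ratio to bins of the same GC was 1.05, 0.993, 1.01 and 1.01 for xChIP H1.2 and 0.553, 0.671, 0.682 and 0.569 for xxChIP H1.2. It was 0.886, 0.831, 0.892 and 0.877 for xChIP H1.5 and 0.483, 0.599, 0.627 and 0.580 for xxChIP H1.5. The xxChIP ratios were lowest in the set with the least GC. For H1.2, however, the interval there (0.516 to 0.592) lay within that of the highest set (0.497 to 0.649). For H1.5 the intervals of these sets were 0.445 to 0.525 and 0.515 to 0.653. In the lowest and highest sets, xChIP H1.5 overlapped 21.6% and 19.4% of ends, against 24.4% and 22.1% of bins, and xxChIP H1.5 16.1% and 8.69%, against 33.4% and 15.0%.

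Gene length went with the xChIP ratios, and also with the share of repeated words, which was 10.2% at ends of genes of 5 to 20 kb and 4.61% at ends of genes over 500 kb. Ends of genes of 5 to 20 kb had xChIP ratios of 1.07 (H1.2) and 0.909 (H1.5), with n = 3244, and ends of the 273 genes over 500 kb had 0.591 (0.459 to 0.750) and 0.688 (0.530 to 0.883). The xxChIP H1.2 ratio was 0.638 and 0.559 in these classes, and that of xxChIP H1.5 was 0.596 and 0.620. When bins were also matched for repeated words, a choice made after seeing the data, little of the difference was left. The xChIP ratios were then 1.13 (1.09 to 1.17) and 1.00 (0.938 to 1.07) for the shorter genes and 0.983 (0.763 to 1.25) and 0.967 (0.744 to 1.24) for the longer ones, with intervals that overlap. The xxChIP ratios were 0.641 and 0.602 for the shorter and 0.632 and 0.718 for the longer genes. Distance to the nearest TSS gave a like pattern, with xChIP H1.2 at 1.07 for 5 to 10 kb and 0.691 beyond 50 kb, where repeated words made up 10.2% and 5.68%, and was matched for GC only. By hexamer, the xxChIP H1.2 ratio was 0.606 with AATAAA, 0.602 with ATTAAA alone and 0.666 with neither. Downstream minus gene side varied more in these classes, at 3.08, 2.30 and 1.95 percentage points in xxChIP H1.2 and 2.85, 1.22 and 1.82 in xxChIP H1.5. The xChIP lists had 4.17, 3.58 and 3.20 (H1.2) and 1.72, 2.43 and 0.959 (H1.5). Ends inside another gene record (n = 3447) had ratios of 0.973 (H1.2) and 0.843 (H1.5) for xChIP and 0.603 and 0.543 for xxChIP, and ends that faced another gene end within 5000 bp (n = 1527) had 0.961 and 0.744 for xChIP and 0.579 and 0.536 for xxChIP. At the limit of the selection, the 986 ends with a TSS at 5000 to 6000 bp had xChIP overlaps of 44.2% (H1.2, ratio 1.03) and 21.5% (H1.5, 0.866) and xxChIP overlaps of 13.5% (0.553) and 12.9% (0.555). The 1189 ends left out with a TSS at 4000 to 5000 bp had 46.3% (1.06) and 22.9% (0.932) for xChIP and 14.4% (0.613) and 11.5% (0.510) for xxChIP.

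Chromosomes were compared with bins of the same GC on the same chromosome. The ratio was below 1 on 23 of 23 chromosomes for both xxChIP lists, on 19 for xChIP H1.5 and on 8 for xChIP H1.2. xChIP H1.2 ranged from 0.780 on chromosome X to 1.29 on chromosome 21, and xChIP H1.5 from 0.635 on chromosome 13 to 1.06 on chromosome 15. xxChIP H1.2 ranged from 0.296 on chromosome 21 to 0.886 on chromosome 19, and xxChIP H1.5 from 0.400 on chromosome 21 to 0.814 on chromosome 19. Chromosome 21 had only 112 ends, and it held the highest xChIP H1.2 value together with the lowest of both xxChIP lists.

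**Figure D5:**
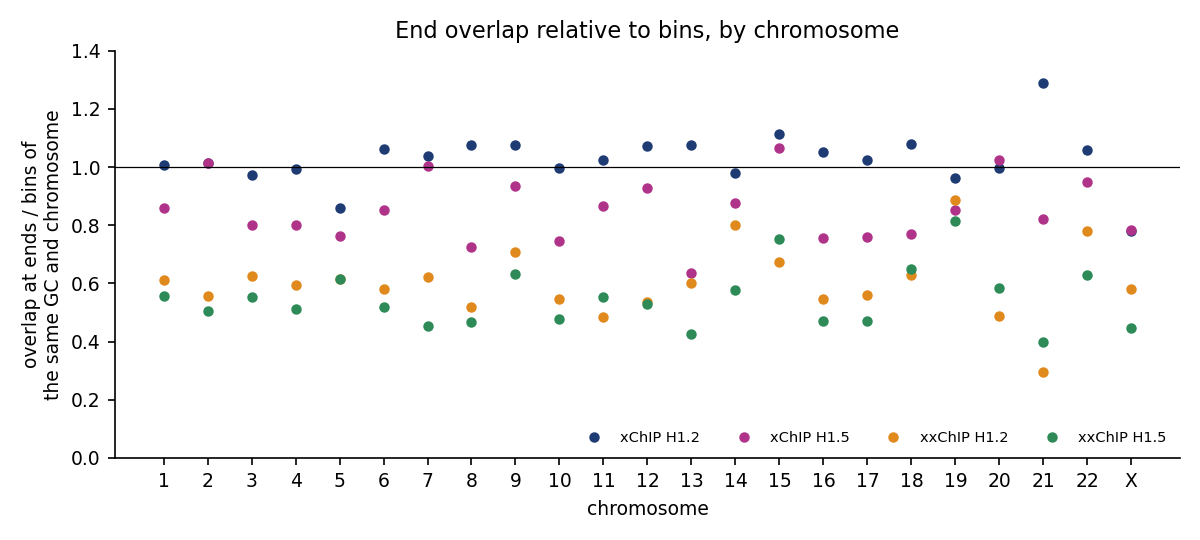
Ratio of end overlap to overlap of bins of the same GC and chromosome (y axis) on each chromosome (x axis), with 1 point per list and a line at 1. Points of both xxChIP lists lie under 1 on 23 of 23 chromosomes, highest on chromosome 19 at 0.886 and 0.814.

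Zinc finger genes on chromosome 19 were looked at as a group chosen after its values were seen. ZNF genes encode zinc finger proteins, many of which bind DNA, and a large share of them lies in clusters on this chromosome. Of 148 ends of genes named ZNF with a number on chromosome 19, xxChIP H1.2 overlapped 68 (45.9%, ratio 1.51 to bins of the same GC genome-wide, 1.25 to 1.77) and xxChIP H1.5 54 (36.5%, ratio 1.33, 1.07 to 1.63). xChIP H1.2 overlapped 31 (20.9%, ratio 0.557) and xChIP H1.5 27 (18.2%, ratio 0.701). The 164 ZNF ends on other chromosomes had xxChIP ratios of 0.590 and 0.440, and the 513 other ends on chromosome 19 had 0.936 and 0.878. The xChIP ratios were 1.16 (H1.2) and 0.730 (H1.5) at ZNF ends elsewhere and 1.06 and 0.866 at other ends of chromosome 19, so the low value of xChIP H1.5 was not particular to ZNF ends on this chromosome. Against bins of the same GC on chromosome 19 itself, as used for chromosomes above and added here after seeing the data, the xxChIP excess at ZNF ends was not seen. There xxChIP H1.2 had a ratio of 1.00 (0.833 to 1.18) and xxChIP H1.5 one of 0.830 (0.664 to 1.01), and xChIP had 0.676 (0.489 to 0.910) and 0.750 (0.528 to 1.04). For the other ends of this chromosome the ratios were 1.01 and 0.882 with xChIP and 0.802 and 0.802 with xxChIP. The high overlap of ZNF ends with xxChIP peaks was thus shared by bins of the same GC on chromosome 19. Whether those bins lie within the ZNF clusters was not tested. Ends of ZNF genes on chromosome 19 share clusters and sequence, so they are not independent of each other. The bins of chromosome 19 were not matched for repeated words. Genome-wide bins matched for GC and repeated words were also added after seeing the data. Against them the xxChIP H1.2 excess at these ends remained, with a ratio of 1.355 (1.124 to 1.591). The xxChIP H1.5 ratio was 1.199, with an interval (0.958 to 1.462) that included 1. The xChIP ratios were 0.479 (H1.2) and 0.664 (H1.5).

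Single ends serve as examples of each pattern. Of 11430 distinct ends, windows wholly under 1 xChIP list and free of the other 3 lists numbered 1134 for H1.2 (9.92%, against 7.65% of bins of the same GC) and 150 for H1.5 (1.31%, against 0.941%). For xxChIP they numbered 150 for H1.2 (1.31%, against 2.55%) and 94 for H1.5 (0.822%, against 1.63%). The ends of GMEB1 and of RCC1, which encodes the exchange factor of the GTPase Ran, lay within 1 xChIP H1.2 peak of 368 kb (chr1:28767776-29136011). An xChIP H1.5 peak of 137 kb (chr7:72589885-72726508) held the end of NSUN5, and one of 56.5 kb the end of SNAI1, which encodes a transcriptional repressor. The end of CYREN lay under an xxChIP H1.2 peak of 78.7 kb, and that of ENSG00000284895 under an xxChIP H1.5 peak of 33.0 kb. NUSAP1, ENSG00000285920 and NDUFAF1 end close together on chromosome 15, under an xChIP H1.2 peak of 167 kb and an xChIP H1.5 peak of 146 kb. The ends of ZNF717, SPRR2E and PSG2 were wholly covered by both xxChIP lists and by neither xChIP list, under xxChIP H1.5 peaks of 90.7, 48.7 and 42.7 kb. Only the windows of NBPF10 and ZNF883 were wholly covered by all 4 lists, and MUC20, a mucin gene, came next with at least 86.15% in each.

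Gene lists gave small counts, set here beside the share of bins of the same GC. Among 13 widely expressed genes whose ends were members, xChIP overlapped 9 with H1.2 (bins 43.5%) and 4 with H1.5 (27.5%), and xxChIP 3 (27.6%) and 1 (25.5%). POLR2A, the largest subunit of RNA polymerase II, had its end window wholly covered by both xChIP lists and by neither xxChIP list, and RAB7A wholly by xxChIP H1.2 alone. Of 20 myeloid genes, xChIP overlapped 8 (H1.2, bins 44.5%) and 3 (H1.5, 25.6%), and xxChIP 2 (23.8%) and 1 (22.9%). The 10 myeloid ends with no list included that of MPO, the myeloperoxidase gene, and 37.6% of all ends had no list. AZU1 and SRGN had windows wholly covered by xChIP H1.2, and NCF1 by both xChIP lists. Of 29 neuronal genes, whose windows had a mean GC content of 36.7%, xChIP overlapped 4 (H1.2, bins 26.9%) and 7 (H1.5, 26.3%), and xxChIP 8 (35.2%) and 4 (30.7%), each share being below that of its bins. Of 16 genes for mRNA 3' end processing and termination, xChIP overlapped 5 (H1.2, bins 35.0%) and 2 (H1.5, 25.3%), and xxChIP 3 (30.9%) and 0 (27.7%). CPSF4 and CLP1 had windows wholly covered by xChIP H1.2, PAPOLA, a poly(A) polymerase, by xChIP H1.5, and XRN2, the nuclear exonuclease of termination, by no list. The counting interval of the ratio included 1 for each gene list and peak list except xxChIP H1.5 at neuronal genes (0.179 to 0.997) and at 3' end processing genes (0 to 0.699). Both of these intervals hold the ratio of 0.564 found for xxChIP H1.5 over all ends, and its share at neuronal genes, 13.8%, was close to the 14.3% of all ends, so neither sets these genes apart. None of these counts was tested.

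Some records share 1 end. There were 32 such ends, used by 94 records, and 11430 distinct ends in all. The largest groups were the protocadherin clusters on chromosome 5, in which 21 PCDHG records ended at 1 position and 13 PCDHA records at another. The window of PCDHGA1 and its group was covered over 1695 bp by xxChIP H1.5 alone, and that of PCDHA1 over 632 bp by xxChIP H1.2 alone.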

How the data were processed

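Paired-end reads had been mapped by the authors to hg19 (Bowtie2, unique alignments only), and MUSIC peaks of the 3 replicates in a group had been merged. The deposited values are peak positions in bp, with no other column. Members, gene lists and rules for named ends were chosen with earlier results of these data known.

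Gene records came from GENCODE 44 lifted to GRCh37, and sequence from the GRCh37 primary assembly. Ends with a TSS within 5000 bp were left out. Bins of 2000 bp gave the mean overlap in each GC class, with at least 50 bins per class, and each end took the value of its class. For the 1000 bp on each side of an end, bins of 1000 bp were used instead. In matching on repeated words, classes were 5 percentage points wide with at least 20 bins. Named ends were taken from each pattern in order of coverage and then peak length, with members of the gene lists. Some ends that met these rules are not reported here. GC matching and orientation were tested on simulated data. Python 3.11.15, numpy 2.4.6, scipy 1.17.1, pandas 2.3.3, numba 0.67.0 and matplotlib 3.10.9 were used.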

Additional observations from a re-analysis of the deposited data

How the results depend on the processing

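No paired analysis was possible because the authors merged the 3 replicates of each group into 1 list, and leaving out a replicate was impossible for the same reason. Of 92 values under other settings, 43 moved by less than their interval or the spread over chromosomes, 40 moved further and 9 turned a sign or took a ratio whose interval left out 1 to its other side. The xChIP H1.2 ratio over all ends, whose interval of 0.991 to 1.04 holds 1, also went below 1 in 3 of the settings that follow. Causes were not tested. With xChIP before xxChIP and H1.2 before H1.5 in each, the end ratio was 0.878, 0.745, 0.434 and 0.403 when at least 50% of the window had to be covered, and 0.945, 0.788, 0.499 and 0.459 for mean coverage. For the last 3 lists it was 0.830, 0.522 and 0.481 with 500 bp on each side, 0.931, 0.776 and 0.705 with 2500 bp, 0.906, 0.688 and 0.648 against bins inside genes, and 0.823, 0.541 and 0.476 with peaks of at least 2000 bp. Matching the GC of the surrounding 100 kb gave 0.936 in xChIP H1.2, and 0.650 (H1.2) and 0.596 (H1.5) in the xxChIP lists. Matching repeated words, chosen after seeing the data, gave 1.15 for xChIP H1.2 and took xChIP H1.5 to 1.01. Both xxChIP ratios over all ends stayed under 1 in each setting run.

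Over 500 bp, downstream minus gene side was 1.99 and 0.915 percentage points in the xChIP lists and 1.45 and 1.33 in the xxChIP lists. Beyond bins of the same GC, a comparison added after seeing the data, it was 0.256 in xChIP H1.2. Beyond bins of the same GC and repeated words it was -5.71 (H1.2) and -1.44 (H1.5) in the xChIP lists. With repeated words under 5% on both sides it was 0.304, 0.127, 0.968 and 0.404 in the order above, and at the 31 ends with none it was -8.61, 6.58, 0 and 0.0613, too few ends to read. The looser limit was added after that count was seen. End minus start as a log2 ratio to bins of the same GC was 0.19, -0.044, -0.034 and 0.13, with the sign turned in the first 3 lists, and in mean coverage it was 4.55 percentage points for xxChIP H1.2 and 3.20 for H1.5.

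For groups of ends, settings were added after seeing the data. Matching repeated words gave 1.13 and 1.00 in the xChIP lists at genes of 5 to 20 kb, and 0.983 and 0.967 at genes over 500 kb. At ZNF ends on chromosome 19, bins of that chromosome gave 1.00 and 0.830 in the xxChIP lists. Genome-wide bins matched for GC and repeated words gave 1.355 (H1.2) and 1.199 (H1.5) in these lists.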
